A study of Homo sapiens with 6 samples.

Results

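The ephrin, semaphorin, plexin and neuropilin genes form the contact and secreted guidance systems described here, measured in spheroids of Cal27, an established human cell line from a tongue squamous carcinoma. Members were taken by symbol from the count table: the EPHA and EPHB receptors, the EFNA and EFNB ligands, the semaphorins of classes 3 to 7, plexins A to D, and the neuropilins NRP1 and NRP2. The rule found 53 of the 38167 genes in the table, of which 14 were Eph receptors, 8 ephrins, 20 semaphorins and 11 plexins or neuropilins.

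The soft group was Cal27 spheroids in 3 mg/mL Matrigel and the stiff group Cal27 spheroids in 12 mg/mL Matrigel, with 3 libraries each. Both groups were grown by liquid overlay for 14 days, were freed from the gel in the same way, and carried no named genetic change or drug. Matrigel is a basement membrane extract: a higher concentration brings both a stiffer gel and more matrix protein, and the effects of these cannot be told apart. The labels call the libraries biological replicates of 1 cell line without saying whether they were separate cultures, so any p-value here reflects the scatter among these libraries, which may be technical. The study's title asks about matrix stiffness, and the comparison made here is between the 2 Matrigel concentrations.

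Eph receptors are tyrosine kinases that bind ephrins on the neighbouring cell, and both partners signal into the cell that carries them. A-type ephrins are held in the membrane by a lipid anchor and B-type ephrins cross it. Semaphorins, either secreted (class 3) or tied to the membrane (classes 4 to 7), act mainly through plexins, whose inner part regulates small GTPases, and most class 3 members need a neuropilin as the binding subunit. In squamous epithelia these systems are known for the sorting of cells, for contact between cells and for migration.

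The libraries held 30656278 to 40583044 counted fragments, and log2 CPM (counts divided by the normalized library size and scaled to 1e+06) correlated at 0.988 to 0.994 within a condition and at 0.953 to 0.967 between conditions. Stiff replicate 2 stood apart from stiff replicates 1 and 3 on the second principal component (-35.0 against 21.5 and 18.3), which carried 10.8% of the variance. Soft replicate 2 lay on the same side, at -13.0 against 1.98 and 6.28 for soft replicates 1 and 3. Of 9 squamous epithelial markers, 9 passed the count filter, 6 were higher and 2 lower in stiff, and their summed level was 6148 to 6811 CPM in soft and 19203 to 20550 CPM in stiff. The lists of 10 neuronal, 9 endothelial, 8 fibroblast and 8 leukocyte markers summed to 33.0 to 36.4, 22.9 to 24.8, 78.6 to 85.2 and 106 to 115 CPM in soft, and to 46.1 to 47.2, 17.8 to 20.8, 107 to 114 and 138 to 152 CPM in stiff. In these lists 2 neuronal, 2 endothelial, 3 fibroblast and 3 leukocyte markers were higher in stiff, 1 endothelial and 1 leukocyte marker were lower, and no marker was at 0 in all 6 libraries. Within each list some markers were close to 0 and others were not. The highest count in any library was 1 for STMN2, 4 for SNAP25, 2 for KDR, 4 for CLDN5, 2 for COL3A1 and 3 for PTPRC. The neuronal marker TUBB3 rose from 10.1 to 21.7 CPM, while SYT1 was at 18.7 CPM in soft and 15.4 in stiff and did not pass. The fibroblast marker LUM rose from 2.31 to 17.3 CPM, and COL1A1 was at 71.8 CPM in soft and 82.6 in stiff. Of the leukocyte markers, CD68 rose from 55.8 to 101 CPM and CD14 fell from 51.4 to 36.6 CPM. The endothelial marker CDH5 fell from 10.4 to 0.552 CPM. EPCAM and CDH1 were the squamous markers that fell. The part of these marker shifts in the results below was not tested. In bulk RNA, fewer cells that carry a transcript and less of it per cell cannot be told apart.

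Stiff spheroids carried more EPHB3, EFNA3, EFNB1, SEMA3C, SEMA3F and SEMA4B mRNA and less NRP2, SEMA3E and SEMA3A mRNA than soft spheroids. Of the 53 genes, 45 passed the filter on low counts and were tested, 41 of them through levels over the filter in both conditions. Across these 45, 12 rose and 7 fell in stiff by edgeR's quasi-likelihood test with Benjamini-Hochberg adjustment over all 18676 genes tested, at a threshold of 0.05. The called share was 42.2% (26.7% higher and 15.6% lower), beside 49.1% of all tested genes (25.3% higher and 23.8% lower). The difference between these shares was not tested. Among the 41 members over the filter in both conditions, 12 rose and 6 fell (43.9%). The libraries of the 2 conditions did not overlap for 25 of the 45 genes (15 with stiff above and 10 with stiff below), beside 59.9% of all tested genes (30.3% with stiff above and 29.6% with stiff below). Changes of at least 2-fold past the threshold were seen in 8 members, beside 13.2% of all tested genes. The median log2 fold change of the members was -0.01 and that of all tested genes was -0.000174.

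By family, the called share was 33.3% for Eph receptors, 42.9% for ephrins, 42.1% for semaphorins and 50% for plexins with neuropilins. Over all tested genes it was 49.1%, with 25.3% higher and 23.8% lower. The higher and lower shares were 22.2% and 11.1% for Eph receptors and 42.9% and 0% for ephrins. They were 31.6% and 10.5% for semaphorins and 10% and 40% for plexins with neuropilins, each on few genes. Of 9 tested Eph receptors, 2 rose (EPHA1 and EPHB3), 1 fell (EPHA10) and 6 did not pass. Among 7 tested ephrins, 3 rose (EFNA3, EFNA4 and EFNB1), none fell and 4 did not pass. Of 19 tested semaphorins, 6 rose (SEMA3C, SEMA3F, SEMA4B, SEMA4F, SEMA6C and SEMA6D), 2 fell (SEMA3A and SEMA3E) and 11 did not pass. In the 10 tested plexins and neuropilins, 1 rose (NRP1), 4 fell (NRP2, PLXNA2, PLXNB2 and PLXND1) and 5 did not pass. Median log2 fold changes were -0.02 for Eph receptors, 0.08 for ephrins, 0.18 for semaphorins and -0.16 for plexins with neuropilins. No test compared the families with each other.

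**Figure D1:**
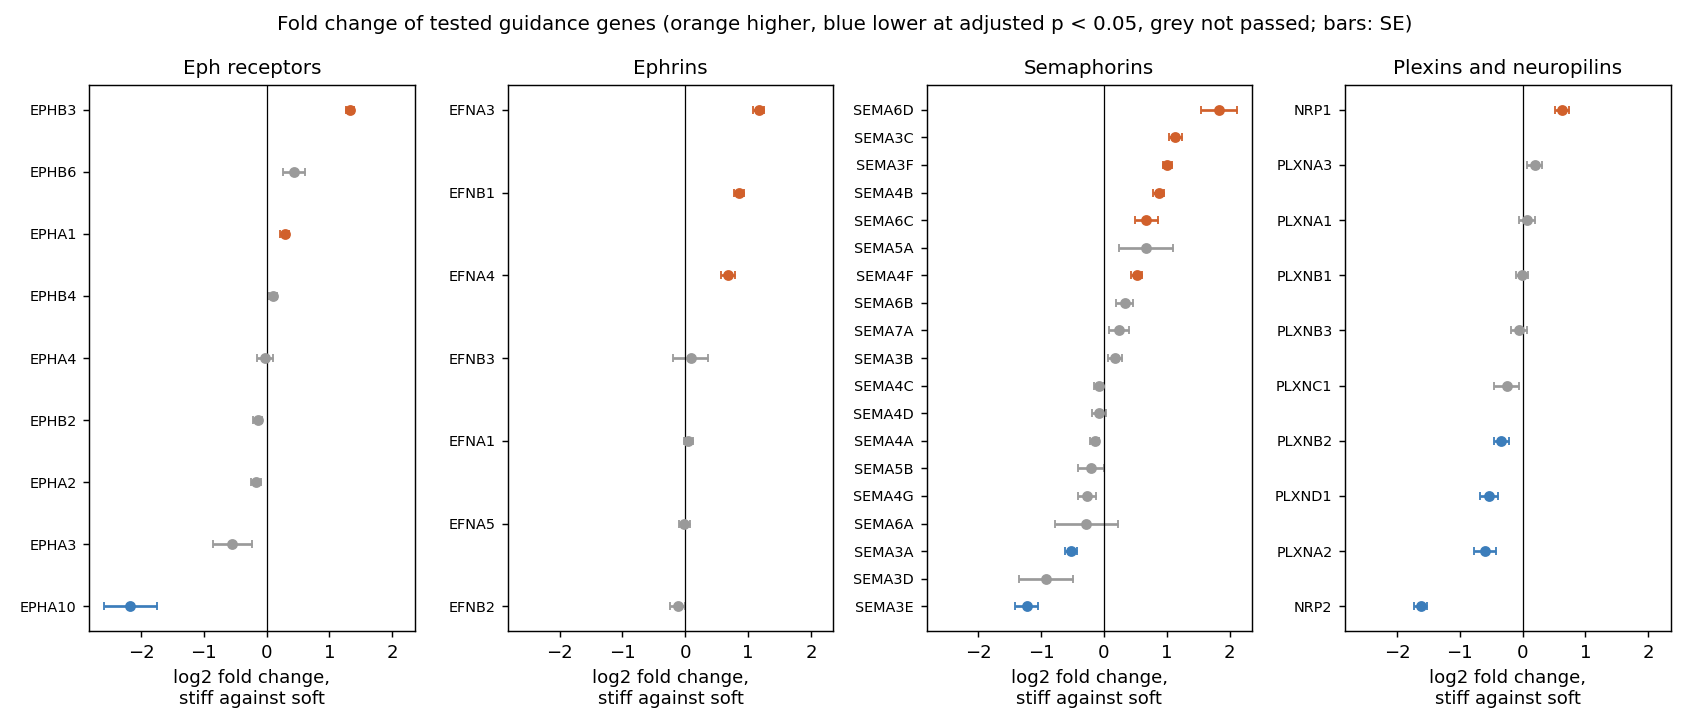
Log2 fold change of stiff against soft (horizontal axis) for each of the 45 tested guidance genes in 4 panels by family, with the standard error as the bar. Orange points rose, blue points fell and grey points did not pass. EPHB3, EFNA3, SEMA3C and SEMA6D lie to the right, and NRP2, SEMA3E and EPHA10 to the left.

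The 8 genes under the filter had at most 14 counted fragments in any library. Their highest counts were 2 for EPHA5, 10 for EPHA6, 4 for EPHA7, 2 for EPHA8, 14 for EPHB1, 11 for EFNA2, 2 for SEMA3G and 6 for PLXNA4. Any difference in them was not detectable at this depth. EPHA10, SEMA3D and SEMA5A passed the filter through 1 condition only, and SEMA6A reached it in neither condition as a whole.

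To show the sequence in front of the genes that the comparison turns on, the 250 bases before the RefSeq start (GRCh38.p14, 5′ to 3′ on the strand of the gene) are given for the largest rise among Eph receptors, ephrins and semaphorins and for the largest fall among semaphorins and among their receptors, of called genes that averaged 5 CPM or more in 1 condition. Capitals mark the CCAAT box, the GC box GGGCGG and the hypoxia-response core ACGTG on either strand.
EPHB3 (chr3:184561535-184561784, + strand): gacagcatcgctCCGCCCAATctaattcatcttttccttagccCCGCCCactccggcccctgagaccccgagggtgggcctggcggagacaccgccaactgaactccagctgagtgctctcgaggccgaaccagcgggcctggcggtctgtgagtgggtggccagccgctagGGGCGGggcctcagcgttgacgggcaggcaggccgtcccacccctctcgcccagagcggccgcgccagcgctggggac
EFNA3 (chr1:155078587-155078836, + strand): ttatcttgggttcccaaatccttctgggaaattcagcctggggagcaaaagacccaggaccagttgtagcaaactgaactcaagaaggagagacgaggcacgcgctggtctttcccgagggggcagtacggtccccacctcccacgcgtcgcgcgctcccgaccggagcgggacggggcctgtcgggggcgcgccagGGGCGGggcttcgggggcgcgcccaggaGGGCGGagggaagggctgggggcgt
SEMA3C (chr7:80922390-80922639, - strand): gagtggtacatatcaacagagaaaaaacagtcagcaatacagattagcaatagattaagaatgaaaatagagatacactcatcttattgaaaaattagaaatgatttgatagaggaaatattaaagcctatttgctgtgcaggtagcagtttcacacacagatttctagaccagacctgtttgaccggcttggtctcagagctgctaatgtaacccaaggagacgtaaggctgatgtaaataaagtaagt
SEMA3E (chr7:83649140-83649389, - strand): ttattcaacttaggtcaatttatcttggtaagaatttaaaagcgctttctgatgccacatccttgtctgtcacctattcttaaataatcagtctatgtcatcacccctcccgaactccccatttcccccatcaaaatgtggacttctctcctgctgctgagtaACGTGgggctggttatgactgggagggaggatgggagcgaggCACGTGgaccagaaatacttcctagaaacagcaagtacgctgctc
NRP2 (chr2:205682251-205682500, + strand): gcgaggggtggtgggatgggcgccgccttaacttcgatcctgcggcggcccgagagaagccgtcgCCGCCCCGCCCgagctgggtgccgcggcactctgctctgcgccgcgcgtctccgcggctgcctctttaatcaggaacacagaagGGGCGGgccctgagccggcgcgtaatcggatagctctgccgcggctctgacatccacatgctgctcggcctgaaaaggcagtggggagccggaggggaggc

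The 5 windows differed in composition. Those of EPHB3, EFNA3 and NRP2 were 70.0%, 67.6% and 70.0% G or C with 21, 23 and 29 CpG, beside medians of 58.0% and 11 over 27305 promoters of the same length. SEMA3C and SEMA3E had 36.4% and 46.4% G or C with 2 and 6 CpG. EPHB3 held 3 GGGCGG matches and 1 CCAAT match, which overlap at 1 place, EFNA3 held 2 GGGCGG matches, and NRP2 held 3, 2 of them overlapping. SEMA3C held none of the marked motifs, and SEMA3E held 3 ACGTG matches, 2 of which are the 2 strands of 1 CACGTG.

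Promoter windows were found for 47 of the 53 genes and for 16 of the 19 that rose or fell. In all, 7 motifs were searched on both strands. CCAAT stood in 7 of the 11 matched genes that rose, in 0 of the 5 that fell, in 16 of the 47 members and in 33.0% of all promoters. GGGCGG stood in 9 of the 11, in 4 of the 5, in 37 of the 47 and in 42.3% of all promoters. The core ACGTG stood in 2 of the 16 (SEMA3E and SEMA6D), beside 18.7% of all promoters. The E-box CACGTG, which contains that core, stood in the same 2, beside 6.49%. The TEAD motif GGAATG stood in 0 of the 16, beside 11.9% of all promoters. The AP-1 motif TGANTCA also stood in 0, beside 6.60%, as did the TATA box TATAAA, beside 11.1%. These are matches of letters in 1 window per gene, described without a test. The windows of SEMA4B and PLXNB2 lie inside the gene spans given below, before a later annotated start. Which start these cells use was not measured for any gene. Every member is a protein-coding gene, while the set of all promoters was not filtered by gene type.

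Among the Eph receptors, EPHB3, a B-type receptor known for keeping epithelial compartments apart, rose most among those with a mean of at least 5 CPM. It lies on chromosome 3 (184561785 to 184582408), behind the first window printed above. Its level was 44.7, 42.9 and 44.8 CPM in soft replicates 1 to 3 and 115, 109 and 109 CPM in stiff replicates 1 to 3. Every stiff library lay above every soft library, with a spread within each condition far smaller than the gap. The log2 fold change was 1.33 ± 0.07 (SE), a 2.51-fold rise (adjusted p = 4.32e-07).

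EPHA1, an A-type receptor, moved less. It was measured at 64.6, 60.5 and 59.7 CPM in soft and at 77.2, 73.1 and 75 CPM in stiff. The groups did not overlap, and the rise was 1.22-fold (log2 0.29 ± 0.07 SE, adjusted p = 0.00573). EPHA10, a receptor that lacks kinase activity, was low throughout, with 52, 69 and 50 counts in soft and 14, 4 and 20 counts in stiff. Its level fell 4.49-fold (log2 -2.17 ± 0.42 SE, adjusted p = 0.00185), from 1.63 ± 0.39 to 0.357 ± 0.225 CPM (SD, n = 3). It passed the count filter only through the soft libraries, where it is high, so this call is not independent of the filter.

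The receptors with the most transcript per exon length did not pass the test. EPHA2, a receptor widely studied in carcinoma, had 149, 145 and 132 CPM in soft and 127, 138 and 115 CPM in stiff. Stiff replicate 2 lay inside the soft range, and the log2 difference was -0.17 with a 95% interval of -0.35 to 0.02 (adjusted p = 0.125). It passed as lower in 6 of 18 other settings, among them without stiff replicate 2 (log2 -0.23, adjusted p = 0.00340), with library size alone (adjusted p = 0.0464) and with the replicate block (adjusted p = 0.0422). In limma on TPM its adjusted p was 0.0331 to 0.0519. EPHB4, the receptor that pairs with ephrin-B2, had 122, 114 and 120 CPM in soft and 126, 126 and 130 CPM in stiff. These groups did not overlap, but the difference was small, with an interval of -0.04 to 0.24 (adjusted p = 0.218). EPHB2 was below its soft libraries in all 3 stiff libraries (74.6 to 78.8 against 67.0 to 74.1 CPM) and also did not pass (adjusted p = 0.114). EPHB6, which like EPHA10 lacks kinase activity, reached an adjusted p of 0.0548 (2.61 to 3.86 CPM in soft, 4.23 to 4.88 in stiff), and passed as higher in several other settings, among them without stiff replicate 2 (adjusted p = 0.0262) and without soft replicate 3 (adjusted p = 0.0422). EPHA4 overlapped between conditions at 6.84 to 9.01 CPM over all 6 libraries, and EPHA3 at 0.785 to 1.77 CPM.

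The ephrins that passed all rose. EFNB1, a transmembrane ligand of the EPHB receptors on chromosome X (68829021 to 68842160), had 50.2, 47.7 and 46.1 CPM in soft and 91.4, 81.6 and 87.5 CPM in stiff. The lowest stiff library was far above the highest soft one, and the rise was 1.81-fold (log2 0.86 ± 0.07 SE, adjusted p = 1.01e-05). EFNB2, the ligand of EPHB4, had 28.5 to 30.9 CPM in soft and 22.1 to 30.1 CPM in stiff, with stiff replicate 2 lowest, and did not pass (adjusted p = 0.406). Its count is uncertain, since AL138689.2 on the opposite strand overlaps 26.2% of its exons.

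EFNA4, EFNA3 and EFNA1 lie in that order on the same strand of chromosome 1, between 155063740 and 155134899. EFNA3 was measured at 9.77, 9.97 and 11.1 CPM in soft and at 23.1, 23.0 and 23.1 CPM in stiff, a 2.25-fold rise (log2 1.17 ± 0.09 SE, adjusted p = 4.50e-06). EFNA4 was at 12.2, 12.7 and 11.5 CPM in soft and at 18.9, 22.6 and 17.0 CPM in stiff, a 1.61-fold rise (log2 0.68 ± 0.11 SE, adjusted p = 0.000775). For both genes the groups were apart, with stiff replicate 2 highest for EFNA4. A locus of GENCODE release 29 that runs through both genes, AL691442.1, covers 44.7% of the exons of EFNA3 and 15.0% of those of EFNA4, so the split of fragments between the 2 genes is uncertain.

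EFNA1, the ligand best known for binding EPHA2, had 208, 209 and 205 CPM in soft and 202, 238 and 204 CPM in stiff. Stiff replicates 1 and 3 lay just under the soft libraries and stiff replicate 2 above them. The log2 difference was 0.05 with a 95% interval of -0.12 to 0.22 (adjusted p = 0.612), and its sign turned without stiff replicate 2 (-0.03). The neighbours on chromosome 1 therefore differed: EFNA3 and EFNA4 passed and EFNA1 did not, although the difference between the genes was not tested. EFNA5 (25.9 to 29.8 CPM over all libraries) and EFNB3 (0.580 to 0.841 CPM) overlapped between conditions.

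**Figure D2:**
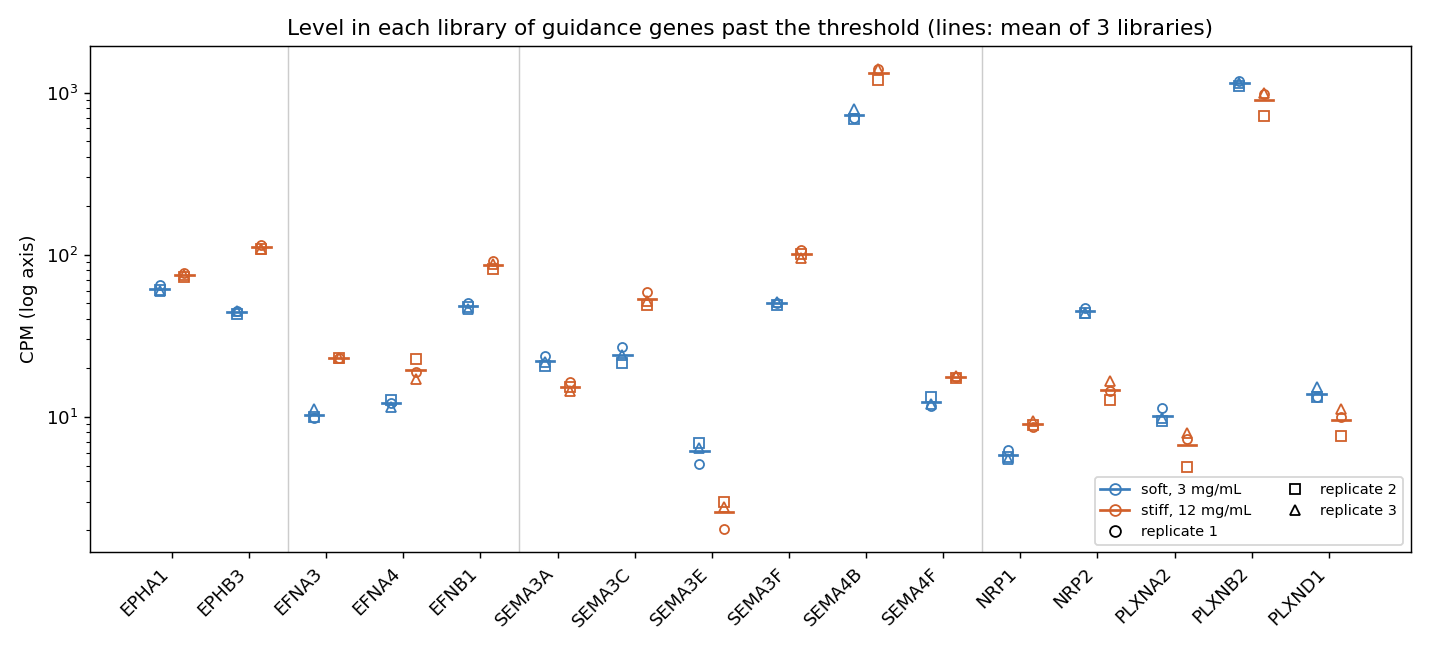
Level (CPM, log axis) of each called guidance gene that averaged 5 CPM or more in 1 condition, with the 3 soft libraries in blue, the 3 stiff libraries in orange, a marker shape per replicate and a line at each mean. EPHB3 sits at 42.9 to 44.8 CPM in soft and 109 to 115 CPM in stiff, and NRP2 at 43.6 to 46.6 CPM in soft and 12.6 to 16.7 CPM in stiff.

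The secreted class 3 semaphorins split in direction. SEMA3C, which signals through both neuropilins, had 26.8, 21.3 and 24.1 CPM in soft and 58.7, 48.8 and 51.4 CPM in stiff. The groups were far apart, and the rise was 2.20-fold (log2 1.14 ± 0.10 SE, adjusted p = 1.6e-05). SEMA3F, which prefers NRP2, had 50.5, 48.7 and 51.1 CPM in soft and 107, 100 and 94.7 CPM in stiff. All 3 stiff libraries were again above all soft ones, at 2.01-fold (log2 1.01 ± 0.07 SE, adjusted p = 3.04e-06).

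SEMA3A, which prefers NRP1, fell. It had 23.7, 20.4 and 21.9 CPM in soft and 16.4, 15.2 and 14.4 CPM in stiff, without overlap, a 1.44-fold decrease (log2 -0.52 ± 0.09 SE, adjusted p = 0.00114). SEMA3E, which binds plexin-D1 without a neuropilin, had 5.13, 6.86 and 6.40 CPM in soft and 2.03, 3.00 and 2.77 CPM in stiff. Its groups did not overlap either, and it fell 2.35-fold (log2 -1.23 ± 0.18 SE, adjusted p = 0.000369). SEMA3C, SEMA3E, SEMA3A and SEMA3D lie in that order on the same arm of chromosome 7, between 80742538 and 85250243, and SEMA3D (0.252 to 1.06 CPM over all libraries) did not pass (adjusted p = 0.103) except without stiff replicate 1. SEMA3B, which lies near SEMA3F on chromosome 3, was above its soft libraries in every stiff library (7.06 to 7.94 against 8.12 to 8.87 CPM) and did not pass (adjusted p = 0.192).

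Per kilobase of exon, the 2 secreted ligands with different neuropilin preference drew apart. The ratio of SEMA3F to SEMA3A was 4.31, 4.81 and 4.72 in soft and 13.2, 13.3 and 13.3 in stiff. The ratio of SEMA3C to SEMA3A was 1.78, 1.64 and 1.74 in soft and 5.65, 5.05 and 5.64 in stiff. Neither ratio overlapped between conditions. This follows from the rise of SEMA3F and SEMA3C and the fall of SEMA3A given above, and is not a separate result.

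Of the membrane-bound semaphorins, SEMA4B, a class 4 transmembrane member on chromosome 15 (90184920 to 90229661), was by far the most abundant. It had 697, 688 and 792 CPM in soft and 1391, 1194 and 1398 CPM in stiff. Each stiff library exceeded each soft library, and the rise was 1.83-fold (log2 0.87 ± 0.09 SE, adjusted p = 2.69e-05). SEMA4F had 11.6, 13.2 and 12.0 CPM in soft and 17.6, 17.3 and 17.9 CPM in stiff, a 1.43-fold rise without overlap (log2 0.52 ± 0.09 SE, adjusted p = 0.000921).

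The other class 4 members did not pass. SEMA4C, a ligand of plexin-B2, had 84.1 to 88.7 CPM in soft and 72.4 to 87.6 in stiff, and SEMA4D, the ligand of plexin-B1, had 29.9 to 34.1 and 25.4 to 33.8. Both overlapped between conditions, with stiff replicate 2 lowest. SEMA4A (35.2 to 38.1 against 31.7 to 33.5 CPM) and SEMA4G (4.18 to 4.74 against 3.25 to 4.13 CPM) were lower in every stiff library than in every soft library, at adjusted p of 0.121 and 0.156. SEMA4G is uncertain, since 22.3% of its exons overlap MRPL43 on the opposite strand.

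In class 6, the low SEMA6D rose 3.57-fold (log2 1.84 ± 0.28 SE, adjusted p = 0.000477), from 0.459 ± 0.010 to 1.65 ± 0.42 CPM (SD, n = 3). SEMA6C rose 1.6-fold (log2 0.67 ± 0.18 SE, adjusted p = 0.0113), from 2.62 ± 0.18 to 4.17 ± 0.86 CPM. SEMA6B, the most abundant of the class, had 11.1, 13.4 and 14.8 CPM in soft and 14.6, 19.0 and 15.6 CPM in stiff. Its groups overlapped by soft replicate 3, and it did not pass (log2 0.33, 95% interval 0.03 to 0.63, adjusted p = 0.0654), although it did without stiff replicate 1 (adjusted p = 0.0426) and without a count filter (adjusted p = 0.0267). SEMA6A (0.176 to 0.722 CPM over all libraries) did not pass.

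SEMA5B had 2.67, 2.05 and 2.09 CPM in soft and 2.17, 1.54 and 2.22 CPM in stiff and overlapped between conditions (log2 -0.21, interval -0.67 to 0.26, adjusted p = 0.439). SEMA7A, the lipid-anchored member that binds plexin-C1 and integrins, had 2.89, 2.37 and 2.35 CPM in soft and 2.78, 3.08 and 3.16 CPM in stiff, also with overlap (log2 0.24, interval -0.13 to 0.61, adjusted p = 0.251). SEMA5A, at 0.252 to 0.776 CPM, did not pass with all libraries and passed as higher without stiff replicate 2.

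The neuropilins moved in opposite directions. NRP2, the binding subunit preferred by SEMA3F and also a co-receptor for VEGF-C, had 46.6, 43.9 and 43.6 CPM in soft and 14.4, 12.6 and 16.7 CPM in stiff. The groups lay far apart and it fell 3.07-fold (log2 -1.62 ± 0.10 SE, adjusted p = 1.63e-06). NRP1, the subunit preferred by SEMA3A and a co-receptor for VEGF-A, had 6.23, 5.63 and 5.50 CPM in soft and 8.67, 8.86 and 9.40 CPM in stiff. It rose 1.55-fold without overlap (log2 0.63 ± 0.11 SE, adjusted p = 0.00106).

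Per kilobase of exon the ratio of NRP2 to NRP1 was 7.88, 8.22 and 8.35 in soft and 1.75, 1.5 and 1.87 in stiff. NRP2 therefore remained the more abundant neuropilin transcript in each library. NRP1 stayed under 1 CPM per kilobase, the limit for expression used below, in both conditions. The neuropilin that prefers SEMA3F fell while SEMA3F rose, and the neuropilin that prefers SEMA3A rose while SEMA3A fell, as the values above give them. Whether the 2 pairs are linked was not tested.

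The plexins that passed all fell, by smaller amounts. PLXNB2, the most abundant plexin, on chromosome 22 (50274979 to 50307646), had 1172, 1097 and 1146 CPM in soft and 986, 721 and 999 CPM in stiff. All stiff libraries were below all soft ones, with stiff replicate 2 much the lowest, and the decrease was 1.26-fold (log2 -0.34 ± 0.11 SE, adjusted p = 0.0321). Without stiff replicate 2 the log2 fold change was -0.20 (adjusted p = 0.00410), and with any 1 soft library left out the adjusted p was 0.0565 to 0.0916. PLXND1, the receptor of SEMA3E, had 13.2, 13.2 and 15.2 CPM in soft and 10.0, 7.57 and 11.1 CPM in stiff. It fell 1.45-fold without overlap (log2 -0.54 ± 0.14 SE, adjusted p = 0.0102).

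PLXNA2, a receptor of class 3 and class 6 semaphorins, had 11.3, 9.35 and 9.81 CPM in soft and 7.28, 4.88 and 7.96 CPM in stiff. The groups did not overlap and it fell 1.51-fold (log2 -0.60 ± 0.17 SE, adjusted p = 0.0150), a call lost without soft replicate 1 (adjusted p = 0.0668). PLXNA1, the most abundant A-type plexin, had 200, 186 and 194 CPM in soft and 228, 157 and 224 CPM in stiff. Stiff replicates 1 and 3 lay above all soft libraries and stiff replicate 2 below them, and the gene did not pass (log2 0.07, interval -0.21 to 0.35, adjusted p = 0.672).

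PLXNA3 had the same layout, at 65.0, 60.3 and 68.8 CPM in soft and 81.6, 59.1 and 81.6 CPM in stiff (adjusted p = 0.198). Without stiff replicate 2, PLXNA1 and PLXNA3 passed as higher, at log2 fold changes of 0.22 (adjusted p = 0.00133) and 0.34 (adjusted p = 9.45e-05). PLXNB1, the receptor of SEMA4D, had 97.4 to 107 CPM in soft and 87.9 to 113 CPM in stiff and did not pass. PLXNB3 (39.1 to 47.4 against 34.1 to 46.9 CPM) also overlapped, and 20.4% of its exons are shared with SRPK3 on the same strand. PLXNC1, the receptor of SEMA7A, had 3.37, 3.31 and 3.41 CPM in soft and 2.58, 2.21 and 3.66 CPM in stiff (log2 -0.25, interval -0.69 to 0.19, adjusted p = 0.310).

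Stiff replicate 2 was the lowest of the 3 stiff libraries for 8 of 8 tested plexins, beside 42.6% of all tested genes. Across the guidance genes it was lowest for 28 of 45, with 5 of 9 Eph receptors, 3 of 7 ephrins and 11 of 19 semaphorins. Its log2 level minus the mean of the other stiff libraries had a median of -0.464 over the plexins, -0.233 over the 20% of tested genes with the most exon bases and 0.241 over the 20% with the fewest. Plexin transcripts are long, and the log2 fold change of stiff against soft had a median of -0.143 over these long genes, 0.135 over the short genes and -0.157 over the plexins. With the trend on exon length removed from each library, PLXNB2 was at -0.24 (adjusted p = 0.0235), PLXND1 at -0.41 (adjusted p = 0.00956), PLXNA2 at -0.44 (adjusted p = 0.0121) and NRP2 at -1.46 (adjusted p = 1.13e-07). In that fit PLXNA1 and PLXNA3 passed as higher, at 0.21 (adjusted p = 0.0294) and 0.35 (adjusted p = 0.00123), and so did EPHB4 (adjusted p = 0.0482), EPHB6 (adjusted p = 0.0389) and SEMA6B (adjusted p = 0.0418). The log2 fold change of PLXNB2 was smaller in these fits than the -0.34 over all libraries, and PLXNA1 and PLXNA3 were called higher in both and in neither direction over all libraries. The part of transcript length and of stiff replicate 2 in the plexin values was not tested further. Exon length also differed within the class 3 semaphorins. It was 5.27 and 4.11 kb for SEMA3C and SEMA3F, which rose, and 8.31 and 8.14 kb for SEMA3A and SEMA3E, which fell. All 19 members called in the main test were also called with the length trend removed. The part of length in the split of class 3 and in the family shares was not tested.

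**Figure D3:**
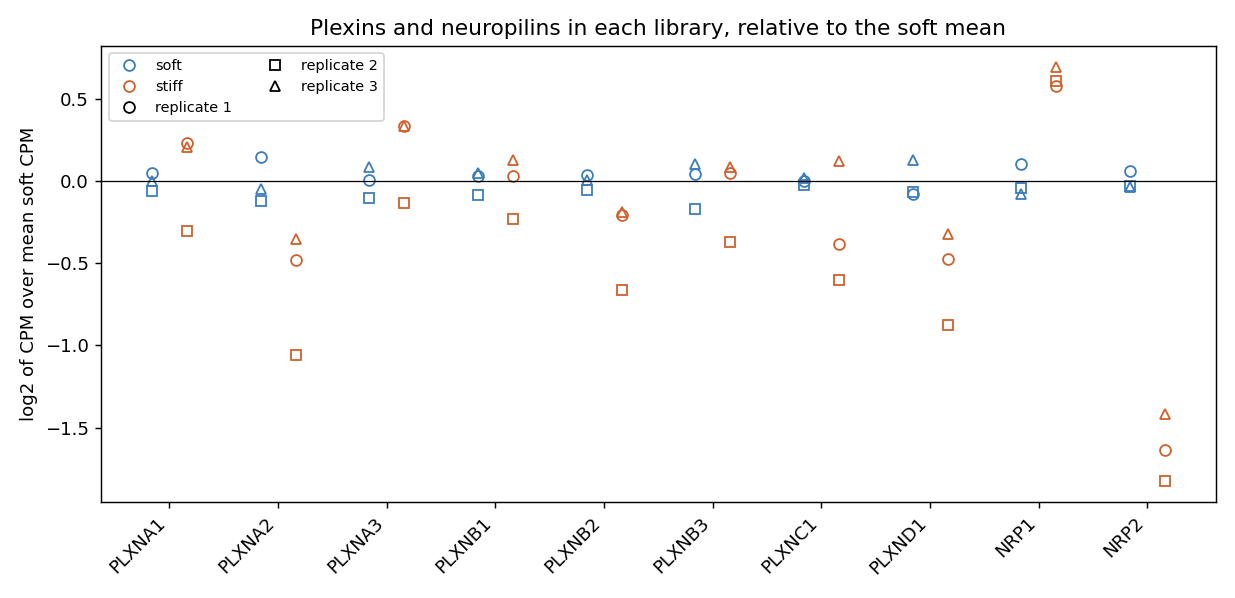
Log2 of the CPM in each library over the mean soft CPM (vertical axis) for the 8 tested plexins and the 2 neuropilins, with soft in blue, stiff in orange and a marker shape per replicate. The square of stiff replicate 2 is the lowest orange point for each of the 8 plexins, and NRP2 lies far below its soft libraries in all 3 stiff libraries.

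Levels were compared between genes as CPM per kilobase of exon, because the lengths behind the authors' deposited TPM grow with the number of annotated transcripts. With at least 1 CPM per kilobase in 1 condition as the limit for expression, 32 of the 53 genes were expressed: 7 Eph receptors, 6 ephrins, 12 semaphorins and 7 plexins or neuropilins. NRP1, SEMA3E, PLXNA2, EPHA10 and SEMA6D were called as changed but stayed under this limit in both conditions. NRP1 averaged 0.535 CPM per kilobase in soft and 0.830 in stiff, and SEMA3E 0.753 and 0.319. SEMA4B and PLXNB2 led, at 185 and 178 CPM per kilobase in soft and 338 and 141 in stiff, so that their order was close in soft and wide apart in stiff. EFNA1 followed at 108 in soft and 112 in stiff.

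The semaphorins, the plexins with neuropilins and the ephrins each had a gene that made up most of the sum. SEMA4B made up 72.0% to 74.2% of the semaphorin sum in soft and 78.8% to 80.6% in stiff. PLXNB2 made up 75.6% to 76.3% of the plexin and neuropilin sum in soft and 72.0% to 72.4% in stiff. EFNA1 made up 72.1% to 72.5% of the ephrin sum in soft and 61.0% to 65.4% in stiff. For each of these shares the libraries of the 2 conditions did not overlap.

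The Eph receptors were spread more evenly. EPHA2 led at 35.8 CPM per kilobase in soft and 31.9 in stiff, followed by EPHB4 at 27.3 and 29.2. EPHB3 stood at 10.4 in soft, below EPHA1 at 18.3, and at 26.1 in stiff, above EPHA1 at 22.3. The ratio of EPHB3 to EPHB4 was 0.376, 0.385 and 0.384 in soft and 0.939, 0.883 and 0.861 in stiff, so EPHB3 came close to EPHB4 without reaching it in any library.

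The ligand pairs shifted as well. The ratio of EFNB1 to EFNB2 was 2.46, 2.50 and 2.45 in soft and 4.76, 5.59 and 4.39 in stiff. The ratio of EFNA1 to EFNA3 was 19.7, 19.4 and 17.1 in soft and 8.10, 9.60 and 8.17 in stiff. EFNA1 therefore stayed the leading ephrin in every library while its lead over EFNA3 was smaller in stiff. Both shifts follow from the values of the single genes given above and are not separate results. The counts of EFNB2 and EFNA3 are uncertain for the overlaps given above, and so are these ratios.

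Summed over each family, the level was 98.3 to 104 CPM per kilobase in soft and 116 to 119 in stiff for Eph receptors, and 147 to 150 against 170 to 189 for ephrins. For semaphorins the sum was 243 to 272 in soft and 386 to 443 in stiff. For plexins with neuropilins it was 225 to 241 in soft and 157 to 216 in stiff, with the lowest value in stiff replicate 2. The ligand sums and the Eph receptor sum thus lay higher in stiff and the semaphorin receptor sum lower, without overlap between conditions. These sums were not tested. The semaphorin sum and the plexin and neuropilin sum moved in the same direction as SEMA4B and PLXNB2, their most abundant members. The Eph receptor sum rose although the mean of EPHA2, its most abundant member, went from 35.8 to 31.9. EPHB3 went from 10.4 to 26.1. Among the ephrins, EFNA1 went from 108 to 112 and EFNB1 from 14.5 to 26.2.

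**Figure D4:**
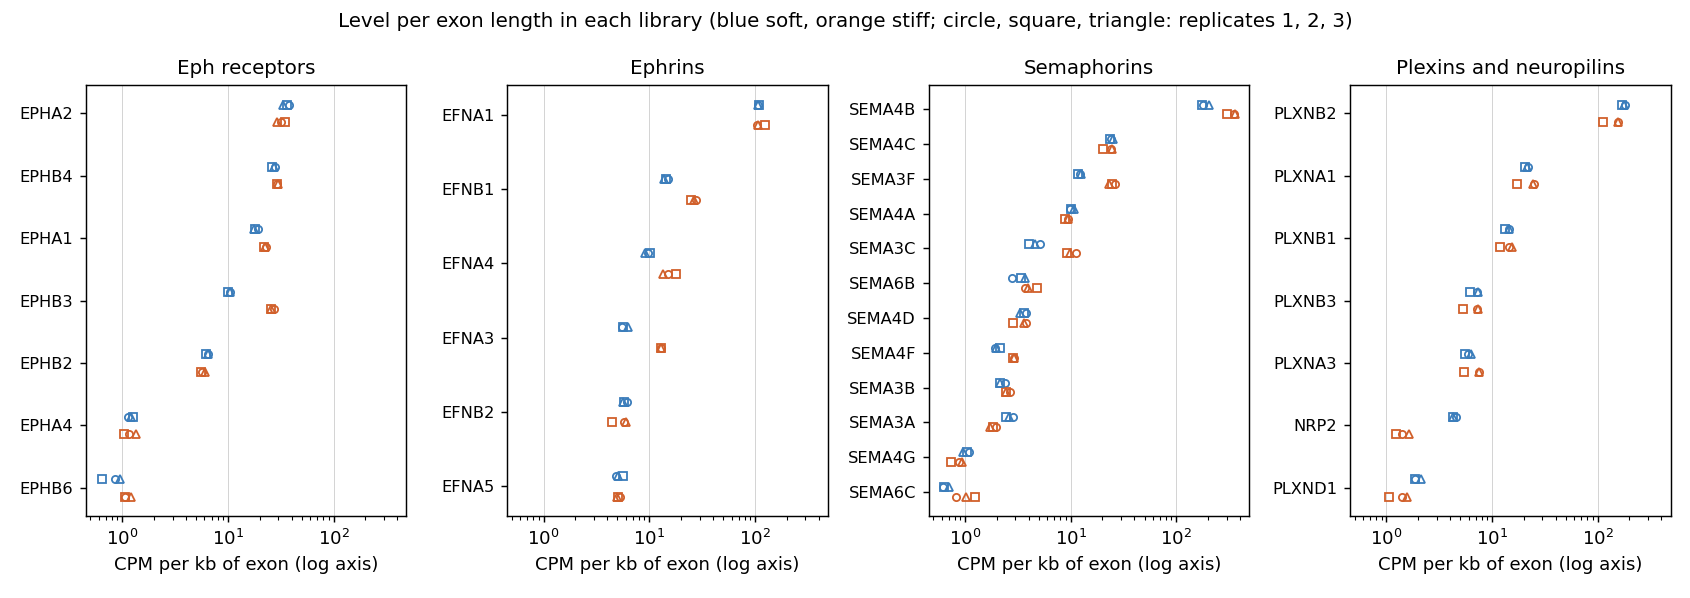
Level per exon length (CPM per kilobase, log axis) of the 32 expressed guidance genes in 4 panels by family, with the 3 soft libraries in blue and the 3 stiff libraries in orange. SEMA4B, PLXNB2 and EFNA1 stand at the top of their families, and the EPHB3 points lie below EPHA1 in soft and between EPHA1 and EPHB4 in stiff.

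Genes that work beside these ligands and receptors were taken as 2 lists. Of 21 Eph and ephrin partners, 20 were tested, 6 rose, 4 fell and 10 did not pass (50% called, median log2 fold change -0.04). VAV2 and ARHGEF16, exchange factors for small GTPases that act downstream of Eph receptors, rose 1.48-fold (adjusted p = 0.000143) and 1.46-fold (adjusted p = 0.000177). CHN1, a GTPase-activating protein used by EphA receptors, fell 3.68-fold (adjusted p = 0.000153) from 1.77 ± 0.20 to 0.481 ± 0.057 CPM (SD, n = 3). ADAM10, a protease that cleaves ephrins, fell 1.33-fold (adjusted p = 0.00192) from 287 ± 13 to 215 ± 20 CPM.

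Of 28 semaphorin and plexin partners, 23 were tested, 7 rose, 5 fell and 11 did not pass (52.2% called, median -0.02). RRAS, a GTPase that plexins switch off, rose 2.42-fold (adjusted p = 3.25e-06), from 42.4 ± 3.3 to 103 ± 10 CPM. L1CAM, a co-receptor of NRP1 for SEMA3A, rose 3.18-fold (adjusted p = 8.77e-05), from 3.68 ± 1.13 to 11.7 ± 1.6 CPM. RND1, a GTPase that binds plexins, fell 7.57-fold (adjusted p = 1.25e-05), from 5.10 ± 0.76 to 0.671 ± 0.247 CPM. ITGA1, a subunit of the integrin that binds SEMA7A, fell 2.80-fold (adjusted p = 4.95e-05), from 12.4 ± 0.7 to 4.42 ± 1.04 CPM. Both called shares were close to the 49.1% of all tested genes.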

How the data were processed

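Directional libraries of polyadenylated RNA were sequenced as read pairs, per the labels' protocols. The submitters' processing notes name STAR 2.6.1e, featureCounts 1.6.2, Trim Galore 0.4.2, FastQC 0.11.7, cutadapt 1.9.1 and the hg38 build. No source used here gives the annotation or the strand setting. The deposited counts are whole fragments per gene symbol, not normalized. The authors also deposited TPM to 1 decimal for each library. For 6173 well-covered genes, 99.79% of count to TPM ratios lay within 5% of a fixed gene length times a library factor. That length, relative to the exon length, was 2.00 times as large for genes with 2 RefSeq mRNAs as for those with 1. It was 9.51 times as large for those with 11 or more. Levels were therefore not compared between genes in TPM, except in the choice of members to show that is described below. Levels per kilobase divide CPM by the union of GENCODE release 29 protein-coding exons, and genes with at least 10% of exons under 1 overlapping gene are called uncertain (this limit was chosen with the values in view).

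The main test was edgeR 4.0.16 (TMM factors, default filter at a count of 10, about 0.278 CPM here, quasi-likelihood fit, no covariate) in R 4.3.3 on the deposited counts, with Benjamini-Hochberg adjustment at 0.05. CPM are counts divided by the TMM-scaled library size, times 1e+06. Library pairs of 1 condition differed by more than sampling noise (chi-square over its degrees of freedom 3.40 to 33.6). The members and lists were chosen with earlier results of these data known. Every member past the threshold is named; values in each library are given for those with a mean of at least 5 CPM in 1 condition and for the most abundant member of each class by mean TPM (a ranking that these lengths distort: per kilobase EPHA2, EPHB4 and SEMA3F lead in place of EPHA1, EPHB3 and SEMA3C, and their values are given too), and for some further members chosen after their values were seen. For each other list, the 2 members of smallest p in each direction are named. The edgeR test was tried on simulated counts with known changes. The alternatives were DESeq2 1.42.0, other scaling, filters and thresholds, limma 3.58.1 on log2(TPM + 1) and log2(TPM + 0.1), leaving out each library, and a block for the replicate number. A correction for each library's trend on exon length (lowess, span 0.3; 84.1% of tested genes had a length), without and with the block, was added after seeing the data.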

Additional observations from a re-analysis of the deposited data

How the results depend on the processing

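Of the 19 guidance genes past the threshold, 12 (EFNA3, EFNA4, EFNB1, EPHA10, EPHB3, NRP2, SEMA3A, SEMA3C, SEMA3E, SEMA3F, SEMA4B and SEMA6D) passed in every setting that gave them a value, and none of the 19 changed sign in any. PLXNB2 lost its call in limma, at the 0.01 threshold and without any 1 soft library; PLXNA2 without soft replicate 1, in limma without a filter and at 0.01; PLXND1 in limma and at 0.01; SEMA6C at 0.01; and EPHA1, NRP1, SEMA4F and SEMA6C in limma. DESeq2 and RLE factors gave 12 higher and 7 lower members, as in the main test, and kept all 19. Library size alone gave 12 higher and 10 lower (EPHA2, EPHB2 and SEMA4A added), and moved the median of all genes to -0.0571 and the higher share of all calls from 51.5% to 44.7%; in limma on TPM that share was 41.2% to 42.3%. EPHA10 passed the filter only through soft, where it is high, and had no value with a minimum count of 50 or in filtered limma, so its place among the 12 depends on the filter. The fall of EPHA10 and the rise of SEMA6D rest on few counts, which limits their precision, and counts in the 8 untested genes were too few for any call.

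Limma on log2(TPM + 1), log2(TPM + 0.1) and log2(TPM + 1) without a filter called 2880, 2831 and 3138 genes higher over all, against 4722 in the main test. In each of the 3, 1 Eph receptor was higher instead of 2, 3 semaphorins were higher instead of 6, 0 plexins or neuropilins were higher instead of 1, and 1 was lower instead of 4. The falling Eph receptor was EPHA2 in both filtered forms and EPHA10 without a filter. These fits hold 29, 29 and 43 members instead of 45. The 0.01 threshold left 1 lower plexin or neuropilin. Eph receptors that fell numbered 3 with library size alone, 0 with a minimum count of 50, where EPHA10 was not tested, and 2 with the length trend removed and the block. With the length trend removed, 4 Eph receptors and 3 plexins or neuropilins rose, also with the block, and 17 members rose in each fit. Leaving out 1 library gave 1 to 2 falling Eph receptors, 1 to 3 rising and 2 to 4 falling plexins or neuropilins; without stiff replicate 2, 16 members rose and 8 fell.

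Whether libraries of the same replicate number share a batch is not given by the labels and was not settled here. Deviations from the group means of same-numbered libraries correlated at 0.0733, 0.216 and 0.05, highest for replicate 2. Those of differently numbered libraries correlated at -0.164 to 0.093, and not every library correlated best with its own number. With the replicate block, 14 members rose and 8 fell, the 19 calls were kept, and 2 Eph receptors fell instead of 1.

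The sign turned for 13 members, none of them called in the main test, and the cause was not tested. With 1 library left out, the log2 fold change ranged from -0.031 to 0.095 for EFNA1, -0.059 to 0.041 for EFNA5, -0.20 to 0.0062 for EFNB2, -0.088 to 0.19 for EFNB3, -0.13 to 0.070 for EPHA4, -0.022 to 0.22 for PLXNA1, -0.091 to 0.083 for PLXNB1, -0.14 to 0.073 for PLXNB3, -0.12 to 0.0071 for SEMA4C, -0.16 to 0.031 for SEMA4D and -0.67 to 0.21 for SEMA6A. In limma with a pseudocount of 1, EFNA1 was at -0.0660, PLXNA1 at -0.0629 and EPHB4 at -0.0131 with and without a filter, and EFNB3 at -0.0288 without one; with 0.1, the first 3 were at -0.0662, -0.0639 and -0.0133. Library size alone put EFNA1 at -0.0068. With the length trend removed, without and with the block, EFNA1 was at -0.0498 and -0.0499, EPHA4 at 0.0914 and 0.0876, EPHB2 at 0.0299 and 0.0259, PLXNB1 at 0.118 and 0.117, PLXNB3 at 0.0406 and 0.0383, EFNA5 at 0.0588 and 0.0607 and SEMA4D at 0.0676 and 0.0692.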

Other observations

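Other guidance families that the report does not describe were lower more often than higher in stiff spheroids. Of 28 netrin, UNC5, DCC, SLIT, ROBO, SRGAP, RGM and FLRT genes with DRAXIN, 19 were tested by edgeR's quasi-likelihood test, 9 fell, 2 rose and 8 did not pass, beside 23.8% and 25.3% of all tested genes that fell and rose. Their median log2 fold change was -0.46. NTN4, a secreted netrin of basement membranes, fell 2.56-fold (adjusted p = 4.06e-07), from 116 ± 2 to 45.4 ± 1.9 CPM (SD, n = 3). UNC5B, a netrin receptor, fell 2.04-fold (adjusted p = 6.29e-06), from 222 ± 15 to 109 ± 9 CPM. UNC5A, another receptor of the same family, rose 2.28-fold (adjusted p = 0.000298), from 1.96 ± 0.36 to 4.47 ± 0.21 CPM. FLRT3, a membrane protein that binds UNC5 receptors, rose 1.80-fold (adjusted p = 0.000556), from 8.93 ± 1.54 to 16.1 ± 1.6 CPM. The list was chosen with earlier results of these data known, and no test compared it with the guidance genes of the report.

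Among the endothelial markers, CDH5 fell 18.7-fold in stiff (adjusted p = 9.47e-07), from 10.4 ± 1.4 to 0.552 ± 0.267 CPM (SD, n = 3), while VWF rose 2.03-fold (adjusted p = 0.00234), from 1.58 ± 0.26 to 3.22 ± 0.58 CPM, and EGFL7 rose 1.30-fold (adjusted p = 0.0172), from 11.3 ± 0.5 to 14.7 ± 1.8 CPM. PECAM1 did not pass, and KDR, CLDN5 and ESAM had at most 2, 4 and 2 counts in any library. CDH5 was singled out after its values were seen.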
